A study of Mus musculus with 9 samples.

Results

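The genes described here are 40 genes of DNA replication and mitosis, 21 of replication and 19 of mitosis. They were measured in mouse embryonic stem cells with and without Gzf1. The genes were chosen by name from known function, with earlier results of these data known. All 40 have a row in the count table of 30232 gene rows, and all 40 passed the filter on low counts that left 12645 rows for testing. One of them, Plk1, shares its row with Dctn5, so the 2 transcripts cannot be separated there. RNA was counted in 9 libraries, 5 of Gzf1-knockout and 4 of wild-type cells. RGM cells, sequenced in run2, gave knockout replicates 1 and 2 and wild-type replicates 1 and 2. Run1 held the other libraries, which were knockout replicates 3, 4 and 5 and wild-type replicate 3 of V6.5, a widely used mouse embryonic stem cell line, and wild-type replicate 4 of a line labelled Cas9-GFP. All cells were grown in LIF and serum over irradiated embryonic fibroblasts, which were removed before harvest. The sources used here do not say how Gzf1 was disrupted or whether libraries came from separate clones or cultures, so p-values measure only a spread between libraries that may be technical.

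Before S phase, the licensing factors Cdc6 and Cdt1 help load a ring of the subunits Mcm2 to Mcm7 onto origins. With Cdc45 and the GINS complex the ring becomes the replicative helicase, and polymerase alpha with primase starts each new strand. In mitosis, cyclin B with Cdk1 drives entry, the Aurora and Polo kinases build the spindle, and Bub1 and Bub1b hold back Cdc20 until chromosomes are attached. Embryonic stem cells are known for a short G1 phase with many cells in S phase. In other mammalian cells E2F factors are known to drive many replication genes. CCAAT boxes, bound by NF-Y, and the cell cycle homology region (CHR), bound by the DREAM and MuvB complexes, are known to time many mitotic genes.

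Libraries held 2568489 to 3704162 counts in RGM cells of run2 and 4872127 to 7072697 counts in run1. The lowest count of any of the 40 genes in any library was 60 and the median was 830. Levels are given as CPM, counts scaled to the size of each library after TMM normalisation, and since tags mark 3' ends, no levels are compared between genes. Gzf1 was at 5.45 and 14.2 CPM in knockout RGM cells, against 28.6 and 30.0 CPM in wild-type RGM cells. Run1 knockout cells had 1.66, 9.40 and 5.25 CPM, against 8.11 CPM in wild-type V6.5 and 18.7 CPM in wild-type Cas9-GFP cells (log2 fold change -1.45, SE 0.42, edgeR adjusted p = 0.9998), so the libraries labelled knockout replicates 2 and 4 both lay above the wild-type V6.5 library, replicate 4 within the same run. A 3' tag outside the edited part does not check the edit. Leaving out either of these libraries, 0 of the 40 genes passed in the knockout comparison as well. All 15 markers of embryonic stem cells, Pou5f1, Sox2 and Nanog included, were counted in every library. Their summed level was 6855 to 8408 CPM in knockout and 7449 to 8360 CPM in wild-type libraries.

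Promoters were read for the 32 of the 40 genes with an entry in the RefSeq table of GRCm38.p6, taking the first listed start site and the 250 bases before it. Mcm4, Gins1, Gins2, Ccne2, Ccna2, Aurkb, Tpx2 and Kif20a had no entry. The motifs searched on both strands were CCAAT, the CHR as TTTGAA or TTCGAA, and the E2F motif as TTTGGCGC, TTTCGCGC, TTTCCCGC or TTTGCCGC. CCAAT was found in 14 of 15 promoters of mitotic genes and in 12 of 17 of replication genes, against 34.5% of 27025 promoters in the table. More than 1 CCAAT stood in 10 of the 15 mitotic and 6 of the 17 replication promoters, against 10.5%. The CHR letters were in 7 mitotic and 3 replication promoters, against 17.4%. The E2F letters were in 1 mitotic and 5 replication promoters, against 1.9%. A match describes the letters in the window only. Start sites differ between annotations, and some windows lie partly or wholly inside the gene as placed by GENCODE M21.

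E2F letters were in 1 of 5 promoters of replication genes higher in RGM cells. They were in 3 of 6 of genes that were lower and in 1 of 6 of genes that did not pass. Shown are 3 of these promoters, Mcm7, which was higher in RGM cells, and Mcm5 and Pola1, which were lower. Cdc6, also lower and with E2F letters, is not shown. All 3 sequences are on GRCm38.p6, with capitals marking the motifs and each sequence ending at the base before the RefSeq start site. Mcm7 lies at chr5:138171884-138172133 on the minus strand, Mcm5 at chr8:75109259-75109508 on the plus strand and Pola1 at chrX:93632156-93632405 on the minus strand. The Mcm7 window lies wholly inside the gene as placed by GENCODE M21 (138164583 to 138172422). Mcm7 also holds 2 CCAAT boxes and 1 CHR match, Mcm5 holds 2 CCAAT boxes and Pola1 holds 1. In Mcm5 one capital run holds 2 E2F matches that overlap on opposite strands.
Mcm7: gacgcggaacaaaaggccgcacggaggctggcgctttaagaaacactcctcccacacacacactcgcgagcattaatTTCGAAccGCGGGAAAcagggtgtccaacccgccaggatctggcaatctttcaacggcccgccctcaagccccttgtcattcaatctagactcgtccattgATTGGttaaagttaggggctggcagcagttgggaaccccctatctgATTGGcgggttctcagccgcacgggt
Mcm5: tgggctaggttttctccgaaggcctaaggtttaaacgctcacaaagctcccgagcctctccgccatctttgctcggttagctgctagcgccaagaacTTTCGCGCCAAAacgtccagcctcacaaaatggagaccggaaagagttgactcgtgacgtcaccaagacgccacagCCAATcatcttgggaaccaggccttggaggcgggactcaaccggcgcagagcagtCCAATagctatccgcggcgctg
Pola1: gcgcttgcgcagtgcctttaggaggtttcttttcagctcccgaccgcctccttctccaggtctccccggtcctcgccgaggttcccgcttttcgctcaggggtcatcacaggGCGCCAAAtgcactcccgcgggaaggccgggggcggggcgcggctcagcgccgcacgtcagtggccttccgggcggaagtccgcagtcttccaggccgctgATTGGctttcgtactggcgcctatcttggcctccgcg

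The promoters of 4 mitotic genes that were higher in RGM cells are shown for their CCAAT boxes. Ccnb1 (chr13:100786487-100786736) has 2, spaced by 32 bases, and Ccnb2 (chr9:70421555-70421804) has 3, spaced by 33 bases each, with 1 CHR match. Cdk1 (chr10:69352913-69353162) has 3 CCAAT boxes, 2 CHR matches and 1 E2F match, and Cdc20 (chr4:118437344-118437593) has 2 CCAAT boxes and 1 CHR match. All 4 are on the minus strand. The windows of Ccnb1, Cdk1 and Cdc20 partly overlap their genes as placed by GENCODE M21. Birc5 (chr11:117848987-117849236, plus strand), which was lower in RGM cells, is shown as the only one of the 15 mitotic promoters without CCAAT in this window. CCAAT was in 7 of 7 mitotic promoters of genes higher in RGM cells, in 6 of 6 of genes that did not pass and in 1 of 2 of genes that were lower, where Plk1 has 1. Top2a, which did not pass, has 6 CCAAT boxes and 4 CHR matches.
Ccnb1: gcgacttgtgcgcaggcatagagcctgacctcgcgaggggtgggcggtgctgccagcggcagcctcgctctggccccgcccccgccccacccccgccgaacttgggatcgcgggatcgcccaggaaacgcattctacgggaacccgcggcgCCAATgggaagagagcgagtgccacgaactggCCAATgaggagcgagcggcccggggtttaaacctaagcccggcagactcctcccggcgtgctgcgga
Ccnb2: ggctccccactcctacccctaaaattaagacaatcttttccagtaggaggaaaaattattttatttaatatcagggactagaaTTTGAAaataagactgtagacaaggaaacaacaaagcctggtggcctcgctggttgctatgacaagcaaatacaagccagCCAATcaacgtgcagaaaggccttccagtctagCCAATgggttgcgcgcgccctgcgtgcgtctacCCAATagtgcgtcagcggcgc
Cdk1: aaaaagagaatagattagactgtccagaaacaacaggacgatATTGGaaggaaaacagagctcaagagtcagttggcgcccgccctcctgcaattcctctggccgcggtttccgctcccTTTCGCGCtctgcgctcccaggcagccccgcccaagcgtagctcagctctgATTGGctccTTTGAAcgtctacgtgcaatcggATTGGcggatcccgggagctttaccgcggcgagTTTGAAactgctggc
Cdc20: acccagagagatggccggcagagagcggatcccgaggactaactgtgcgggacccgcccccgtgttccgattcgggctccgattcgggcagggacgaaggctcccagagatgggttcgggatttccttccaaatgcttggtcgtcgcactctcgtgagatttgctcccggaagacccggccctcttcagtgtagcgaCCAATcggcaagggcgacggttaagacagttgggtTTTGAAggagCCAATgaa
Birc5: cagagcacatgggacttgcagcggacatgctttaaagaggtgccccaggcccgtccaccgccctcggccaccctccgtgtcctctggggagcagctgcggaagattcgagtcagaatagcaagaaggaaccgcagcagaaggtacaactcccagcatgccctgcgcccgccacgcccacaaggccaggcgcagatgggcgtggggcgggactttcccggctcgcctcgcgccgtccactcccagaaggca

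**Figure D1:**
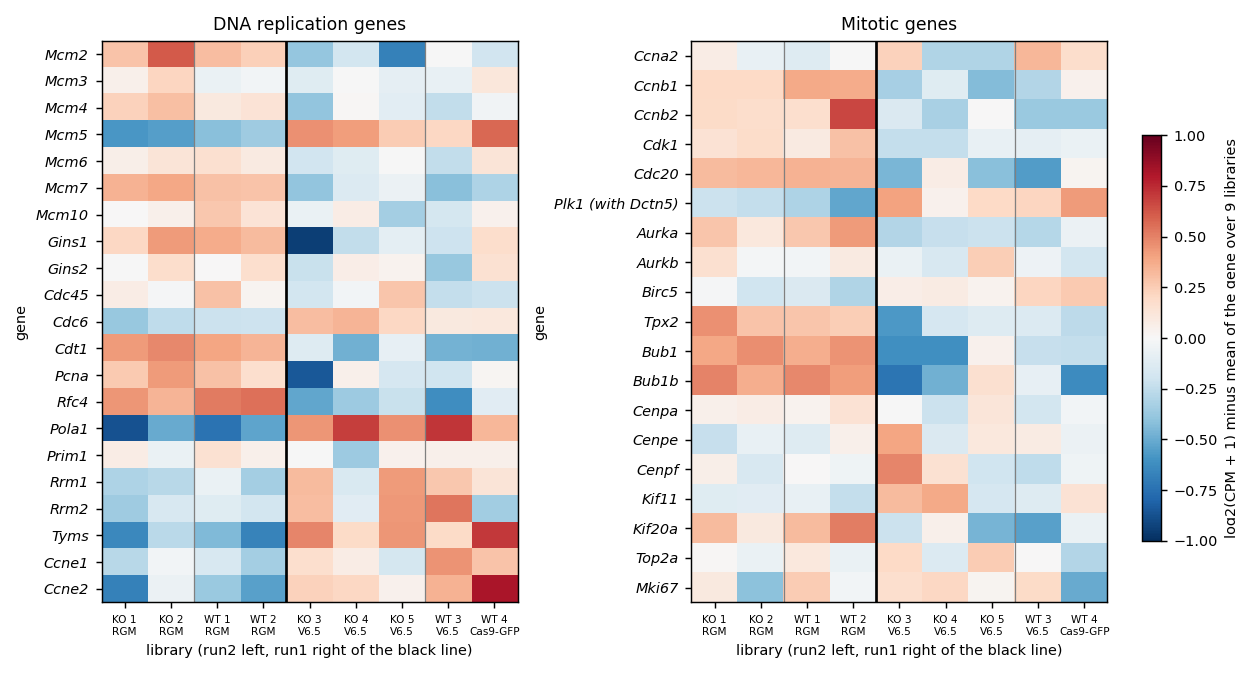
Level of each of the 40 genes in each library, as log2(CPM + 1) minus the mean of the gene over the 9 libraries, with knockout (KO) left of wild type (WT) within each run and RGM cells left of the black line. The colour changes at the black line, between RGM cells and the run1 lines, for many rows, while no row separates all knockout from all wild-type libraries.

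The first question was whether loss of Gzf1 changed the replication and mitotic programmes. In the fit of all 9 libraries, with run as a term, 0 of the 40 genes passed an adjusted p of 0.05 (edgeR quasi-likelihood test), against a background of 0.0316% of the 12645 genes. At an unadjusted p under 0.05 there were 0 of the 40 too, against 2.32% of all genes, and DESeq2 and limma voom each called 0. The median log2 fold change was -0.03 for the 21 replication genes (7 positive, 14 negative) and 0.01 for the 19 mitotic genes (11 positive, 8 negative), beside 0.01 for all genes. Every estimate lay between -0.23 (Gins1) and 0.18 (Cdt1) on the log2 scale. The 95% intervals of all 40 lay within 1 log2 unit of 0, reaching from -0.62 to 0.43 over the replication genes and from -0.47 to 0.50 over the mitotic genes, and changes inside those intervals were not detectable here. In bulk RNA, fewer cells in a phase and less RNA per cell cannot be told apart. For none of the 40 genes did the knockout libraries stand apart from the wild-type libraries, a separation found for 0.443% of all genes.

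**Figure D2:**
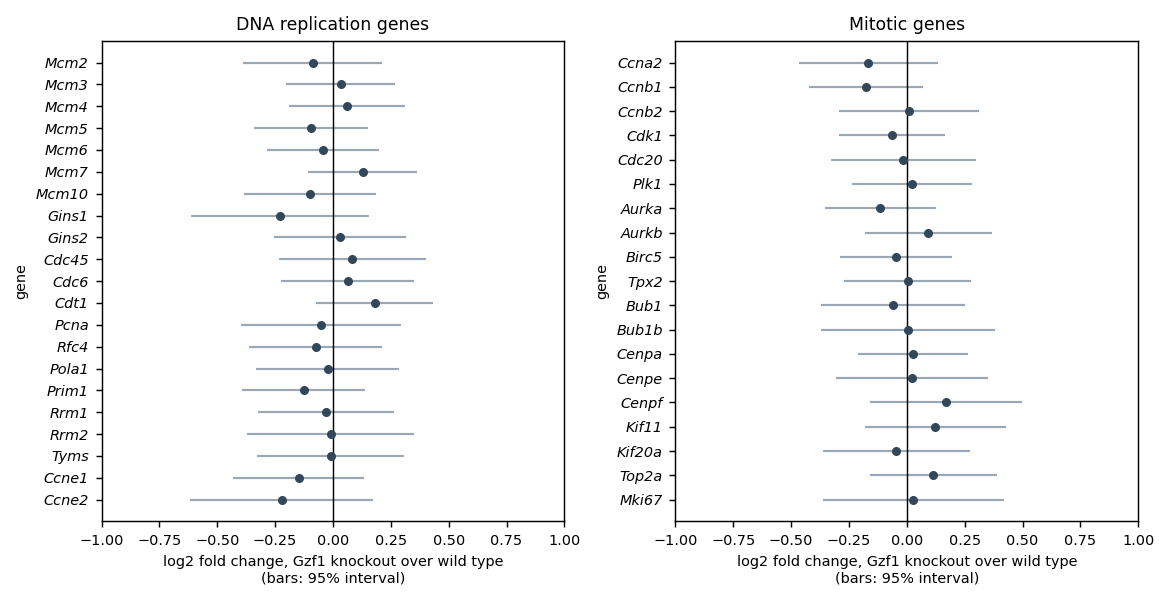
Log2 fold change of knockout (n = 5) over wild type (n = 4) for each gene in the fit of all libraries, with points for estimates and bars for 95% intervals. Every bar crosses 0, and the estimates stay between -0.23 and 0.18.

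Among the replication genes the 3 with the smallest p were Cdt1, Gins1 and Ccne2. Cdt1, the licensing factor that brings the MCM ring to origins, was at 326 and 339 CPM in knockout RGM cells, against 318 and 307 CPM in wild-type RGM cells. Values in run1 were 222, 173 and 228 CPM in knockout cells, against 174 CPM in each of the 2 wild-type libraries. The knockout values were on the higher side in RGM cells and spanned the wild-type ones in run1 (log2 fold change 0.18, SE 0.12, 95% interval -0.07 to 0.43, edgeR adjusted p = 0.9998). Gins1, a subunit of the GINS complex, was at 69.5 and 80.9 CPM in knockout RGM cells, against 77.9 and 74.99 CPM in wild-type RGM cells. Run1 knockout cells had 30.8, 50.5 and 56.2 CPM, against 52.1 CPM in wild-type V6.5 and 68.0 CPM in wild-type Cas9-GFP cells. The low value of knockout replicate 3 stands out in that group (log2 fold change -0.23, SE 0.18, interval -0.61 to 0.15). Ccne2, which encodes cyclin E2, a partner of Cdk2 at S-phase entry, was at 21.5 and 33.5 CPM in knockout and 26.7 and 23.7 CPM in wild-type RGM cells. Run1 knockout cells had 41.1, 40.5 and 35.9 CPM, against 44.8 CPM in wild-type V6.5 and 62.2 CPM in Cas9-GFP cells. All 3 knockout values of run1 lay below both wild-type values, whereas in RGM cells the genotypes overlapped (log2 fold change -0.22, SE 0.19, interval -0.62 to 0.17).

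Among the mitotic genes the 3 with the smallest p were Ccnb1, Ccna2 and Cenpf. Ccnb1, which encodes the cyclin B1 partner of Cdk1, was at 399 and 398 CPM in knockout RGM cells, against 451 and 450 CPM in wild-type RGM cells. Knockout cells of run1 had 276, 319 and 257 CPM, against 283 CPM in wild-type V6.5 and 357 CPM in Cas9-GFP cells. Knockout was below wild type in RGM cells, and in run1 the genotypes overlapped (log2 fold change -0.18, SE 0.12, interval -0.42 to 0.07, edgeR adjusted p = 0.9998). Ccna2, which encodes cyclin A2 of S phase and G2, was at 400 and 360 CPM in knockout and 346 and 378 CPM in wild-type RGM cells. Knockout cells of run1 had 445, 308 and 308 CPM, against 478 CPM in wild-type V6.5 and 430 CPM in Cas9-GFP cells. Knockout replicate 3 lay between the 2 wild-type libraries and the other knockout libraries below them (log2 fold change -0.17, SE 0.14, interval -0.47 to 0.14). Cenpf, a large kinetochore and microtubule-binding protein, had the highest estimate of the mitotic genes (0.17, SE 0.15, interval -0.16 to 0.50). It was at 114 and 97.9 CPM in knockout and 109 and 106 CPM in wild-type RGM cells, and at 154, 121 and 95.1 CPM in knockout, 91.4 CPM in wild-type V6.5 and 106 CPM in Cas9-GFP cells. Genotypes overlapped in both runs.

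The knockout effect was also read within each run. In RGM cells 0 of the 40 genes passed the threshold and 0 had an unadjusted p under 0.05 (edgeR; 0.822% of all genes had one, and 0 genes of all passed). In run1 the counts were again 0 and 0 (3.84% of all genes had an unadjusted p under 0.05, and 0.0158% passed). DESeq2 and limma voom called 0 of the 40 in either run, and over all genes 2 and 4 in RGM cells. Medians were -0.03 and -0.02 for the replication genes and -0.02 and 0.03 for the mitotic genes, in RGM cells and in run1 in that order. The intervals within a run were wider than in the joint fit, from -0.84 to 0.73 over the 40 genes in RGM cells and from -0.95 to 0.77 in run1. The effects in the 2 runs, which share no library, had the same sign for 16 of the 40 genes, against 48.2% of all genes, and correlated at r = -0.42 across the 40 genes (r = 0.03 across all genes), a description over genes that share libraries and scaling. Tests of the difference between runs called 0 of the 40 genes (unadjusted p under 0.05 for 0 of the 40 and for 1.44% of all genes, with 0 calls by DESeq2 and limma voom). The widest differences were those of Ccne2 (0.56, SE 0.37) and Mki67 (-0.51, SE 0.36).

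Other genes of the same pathways were read in the same fit. Of 53 further replication genes (origin recognition, polymerases, clamp loader, histone chaperones), 61 further mitotic genes (60 tested) and 34 regulators of G1 and E2F activity (33 tested), 0 passed the threshold in the fit of all libraries. The share over all genes was 0.0316%. At an unadjusted p under 0.05 there were 2, 1 and 0, against 2.32% of all genes. Medians were -0.01, 0.00 and 0.03 on the log2 scale, beside 0.01 for all genes. Of 24 tested markers of feeder fibroblasts 0 passed, and 19 had a positive estimate (median 0.16), against 6656 of 12645 genes with a positive estimate (median 0.01). The summed level of all 25 was 2025 to 4825 CPM in knockout and 1754 to 3745 CPM in wild-type libraries, and its part in the estimates above was not tested.

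The second question was how the 40 genes differed between the cell lines. RGM cells (n = 4) were set against the run1 lines (n = 5) in the same fit, with genotype as a term. Run and line cannot be told apart, and neither can the lower depth of run2. In RGM cells 25 of the 40 genes differed, 16 higher and 9 lower (edgeR, adjusted p under 0.05), against a background of 45.3% of all genes, 22.2% higher and 23.1% lower. By group, 14 of 21 replication genes differed, 7 in each direction, and 11 of 19 mitotic genes differed, 9 higher and 2 lower. The median log2 difference was 0.15 for replication and 0.14 for mitotic genes, beside -0.02 for all genes, and the median size without sign was 0.48 and 0.32, beside 0.49 for all genes. DESeq2 and limma voom each called 25 as well. The count fell within 18 to 26 when any 1 library was left out. The share over all genes is given for the main edgeR fit only. Counts in the alternatives are therefore not set against it. The RGM libraries stood apart from all run1 libraries for 23 of the 40 genes, against 38.6% of all genes, with 16 above (background 19.4%) and 7 below (background 19.2%).

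Subunits of the MCM ring differed in opposite directions. Mcm2 averaged 752 ± 93.2 CPM in RGM cells and 482 ± 81.8 CPM in run1 lines (SD, n = 4 and 5; log2 fold change 0.64, SE 0.14). Mcm7 averaged 752 ± 24.9 CPM in RGM cells and 501 ± 56.8 CPM in run1 lines (0.60, SE 0.11), and Mcm4 397 ± 25.6 and 313 ± 34.9 CPM (0.35, SE 0.12). Every one of these 3 was higher in RGM cells (edgeR adjusted p = 0.00204, 0.000589 and 0.0266). The call for Mcm4 was lost when knockout replicate 1, 2 or 3 or wild-type replicate 1, 2 or 3 was left out (0.28 to 0.40 over all 9 omissions, adjusted p at most 0.0847). Mcm5 went the other way. It was at 301 and 308 CPM in knockout and 339 and 353 CPM in wild-type RGM cells, against 621, 604 and 540 CPM in knockout V6.5, 522 CPM in wild-type V6.5 and 673 CPM in Cas9-GFP cells. No RGM library came near any run1 library (log2 fold change -0.88, SE 0.12, edgeR adjusted p = 5.39e-05). Mcm3 (0.08, SE 0.11) and Mcm6 (0.19, SE 0.11) did not pass (adjusted p = 0.562 and 0.192). The ratio of Mcm5 to Mcm7 counts, which no scaling of libraries can alter, was 0.393 to 0.484 in RGM cells and 0.937 to 1.39 in run1 lines. It was picked after the values were seen. Mcm5 lies on chromosome 8 at 75109569 to 75128439 and overlaps no other annotated gene (GENCODE M21, GRCm38, also called mm10). Mcm7 (chromosome 5, 138164583 to 138172422) overlaps Cops6 and Ap4m1 on the other strand. The sources used here do not say whether the counting used strand, so reads of such pairs cannot be told apart. Cops6 itself was lower in RGM cells (-0.46, SE 0.16).

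**Figure D3:**
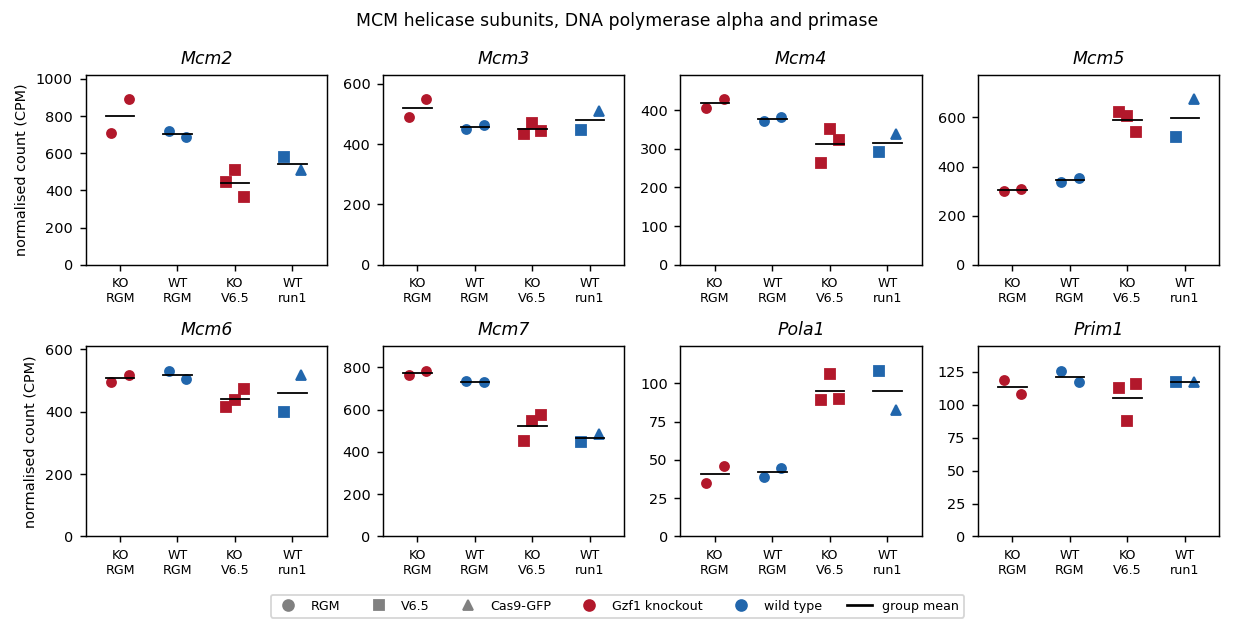
Normalised count (CPM) of the 6 MCM ring subunits, Pola1 and Prim1 in each library, by genotype and line, with knockout (KO) left of wild type (WT), RGM left of run1, and bars for group means. Mcm5 and Pola1 are low in all 4 RGM libraries, Mcm2, Mcm4 and Mcm7 are high there, and the ranges of Prim1 overlap.

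Of the other helicase genes, Gins1 was higher in RGM cells (75.8 ± 4.86 CPM in RGM cells and 51.5 ± 13.5 CPM in run1 lines, SD, n = 4 and 5; log2 fold change 0.55, SE 0.18, edgeR adjusted p = 0.0223). That call was lost without knockout replicate 1, knockout replicate 2 or wild-type replicate 3 (0.41 to 0.65 over all 9 omissions, adjusted p at most 0.0891). Cdc45, Gins2 and Mcm10, which help activate or stabilise the helicase, had 0.18, 0.15 and 0.20 with intervals that include 0. Gse1, on the other strand over Gins2, was lower (-0.83, SE 0.14), and Ufd1 overlaps Cdc45 on the other strand. The licensing factors parted. Cdt1, whose values by library are given above, averaged 323 ± 13.5 CPM in RGM cells and 194 ± 28.2 CPM in run1 lines (0.75, SE 0.12, adjusted p = 0.000176). Every RGM library was above every run1 library. Cdc6, which loads the ring together with Cdt1, averaged 42.5 ± 2.36 CPM in RGM cells and 59.5 ± 4.77 CPM in run1 lines (-0.48, SE 0.14, adjusted p = 0.0102, lost without knockout replicate 1 at adjusted p = 0.0653). Cdt1 overlaps a read-through annotation, Gm20388, on its own strand.

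Strand synthesis genes included the largest difference of all 40. Pola1, the catalytic subunit of DNA polymerase alpha (X chromosome, 93304767 to 93632155), was at 35.2 and 45.8 CPM in knockout and 38.8 and 45.0 CPM in wild-type RGM cells. Values in run1 were 89.0, 106 and 90.0 CPM in knockout V6.5, 108 CPM in wild-type V6.5 and 82.4 CPM in Cas9-GFP cells. RGM values were 2.32-fold lower (log2 fold change -1.21, SE 0.15, edgeR adjusted p = 2.54e-05). Prim1, the primase subunit of the same complex, was at 117 ± 7.25 CPM in RGM cells and 110 ± 12.7 CPM in run1 lines (0.08, SE 0.12, interval -0.19 to 0.35, adjusted p = 0.63). Rfc4, a subunit of the clamp loader, was at 137 and 128 CPM in knockout and 145 and 148 CPM in wild-type RGM cells. Rfc4 in run1 was at 69.8, 77.9 and 86.0 CPM in knockout V6.5, 65.1 CPM in wild-type V6.5 and 92.7 CPM in Cas9-GFP cells. All RGM libraries were higher (0.82, SE 0.13, adjusted p = 0.000253). Eif4a2, which overlaps Rfc4 on the other strand, was higher as well (0.97, SE 0.25). Pcna, the sliding clamp, averaged 308 ± 22.7 CPM in RGM cells and 220 ± 48.4 CPM in run1 lines (0.49, SE 0.16, adjusted p = 0.0243). Its call was lost when knockout replicate 1, knockout replicate 2, wild-type replicate 1 or wild-type replicate 3 was left out, with log2 fold changes of 0.35 to 0.56 over all 9 omissions and an adjusted p of at most 0.0885.

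Of the 5 genes of nucleotide supply and cyclin E, 4 were lower in RGM cells and 0 higher, against 23.1% lower and 22.2% higher over all genes. Tyms, thymidylate synthase, was at 59.6 and 77.4 CPM in knockout and 68.5 and 58.4 CPM in wild-type RGM cells. Tyms in run1 was at 131, 107 and 127 CPM in knockout V6.5, 107 CPM in wild-type V6.5 and 154 CPM in Cas9-GFP cells. The groups did not overlap (log2 fold change -0.93, SE 0.15, edgeR adjusted p = 0.000254). Rrm1, the large subunit of ribonucleotide reductase, averaged 128 CPM (range 119 to 145) in RGM cells and 175 CPM (range 136 to 204) in run1 lines (-0.46, SE 0.14, adjusted p = 0.0147). The small subunit Rrm2 had -0.40 (SE 0.17, interval -0.77 to -0.04) and did not pass (adjusted p = 0.0658). Ccne1 averaged 209 ± 20.1 CPM in RGM cells and 271 ± 43.2 CPM in run1 lines (-0.38, SE 0.13, adjusted p = 0.0309), and Ccne2 26.3 ± 5.26 and 44.9 ± 10.2 CPM (-0.78, SE 0.19, adjusted p = 0.00423). An annotated pseudogene carries the name of Tyms, and others those of Pcna, Ccnb1 and Ccnb2, so reads may be split there. Ints8 overlaps Ccne2 on the other strand and had -0.10 (SE 0.12). The call for Ccne1 was lost without knockout replicate 1 or any 1 of the 4 wild-type replicates (-0.48 to -0.30 over all 9 omissions, adjusted p at most 0.121). The call for Rrm1 was lost without knockout replicate 1, knockout replicate 2 or wild-type replicate 2 (-0.54 to -0.41, adjusted p at most 0.0629).

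Of 5 genes of mitotic entry and exit, 4 were higher in RGM cells and 0 lower, against 22.2% higher and 23.1% lower over all genes. Ccnb1 averaged 425 ± 30.3 CPM in RGM cells and 298 ± 39.9 CPM in run1 lines (SD, n = 4 and 5; log2 fold change 0.49, SE 0.12, edgeR adjusted p = 0.00322). Ccnb2, the second B cyclin, had 0.55 (SE 0.14, adjusted p = 0.0055) and Cdk1, their kinase, 0.31 (SE 0.11, adjusted p = 0.0264). The call for Cdk1 was lost without knockout replicate 1, knockout replicate 2 or wild-type replicate 2 (0.29 to 0.35, adjusted p at most 0.0816). Cdc20, the activator of the anaphase-promoting complex, was within 357 to 366 CPM in all RGM libraries and ranged from 195 to 302 CPM in run1 (0.58, SE 0.15, adjusted p = 0.00517). Ccna2 did not differ past the threshold (-0.09, SE 0.14, interval -0.39 to 0.21). Exosc9, on the other strand over Ccna2, was lower (-0.84, SE 0.13). Elovl1, on the other strand over Cdc20, was higher too (0.46, SE 0.16).

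Bub1, a spindle checkpoint kinase, had the smallest adjusted p of the mitotic genes. Bub1 was at 194 and 205 CPM in knockout and 191 and 203 CPM in wild-type RGM cells, against 96.5, 96.5 and 153 CPM in knockout V6.5, 126 CPM in wild-type V6.5 and 126 CPM in Cas9-GFP cells. Bub1b, which encodes BubR1 of the checkpoint complex, was at 174 and 159 CPM in knockout and 173 and 165 CPM in wild-type RGM cells. In run1 Bub1b was at 74.0, 88.3 and 138 CPM in knockout V6.5, 117 CPM in wild-type V6.5 and 79.5 CPM in Cas9-GFP cells. Every RGM library was above every run1 library for both, with knockout replicate 5 the highest of run1 (Bub1 0.72, SE 0.15, edgeR adjusted p = 0.00113; Bub1b 0.76, SE 0.18, adjusted p = 0.003). Aurka, a kinase of the spindle poles, was at 240 and 213 CPM in knockout and 238 and 266 CPM in wild-type RGM cells. It was at 162, 168 and 170 CPM in knockout V6.5, 163 CPM in wild-type V6.5 and 190 CPM in Cas9-GFP cells (0.48, SE 0.11, adjusted p = 0.0032). Its activator Tpx2 was at 186 and 165 CPM in knockout and 165 and 161 CPM in wild-type RGM cells. In run1 Tpx2 was at 90.97, 121 and 124 CPM in knockout V6.5, 124 CPM in wild-type V6.5 and 113 CPM in Cas9-GFP cells (0.57, SE 0.13, adjusted p = 0.00251). No RGM library overlapped a run1 library for either gene.

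Plk1 and Birc5 were the 2 mitotic genes that were lower in RGM cells. The row of Plk1, the Polo kinase, merged with Dctn5, a dynactin subunit, held 270 and 266 CPM in knockout and 254 and 220 CPM in wild-type RGM cells. In run1 that row was at 416, 325 and 361 CPM in knockout V6.5, 365 CPM in wild-type V6.5 and 423 CPM in Cas9-GFP cells, above all RGM libraries (log2 fold change -0.58, SE 0.12, edgeR adjusted p = 0.00166). The change cannot be given to one of the 2 transcripts. Birc5, survivin of the chromosomal passenger complex, averaged 214 ± 18.1 CPM in RGM cells and 262 ± 18.5 CPM in run1 lines (-0.30, SE 0.11, adjusted p = 0.0455). That call was lost without knockout replicate 2 or any 1 of the 4 wild-type replicates (-0.36 to -0.24 over all 9 omissions, adjusted p at most 0.158). Aurkb, the kinase of that complex, had 0.10 (SE 0.13, interval -0.18 to 0.37). Of the spindle motors, Kif20a was higher (0.55, SE 0.15, adjusted p = 0.00814) and Kif11 did not pass (-0.25, SE 0.14, adjusted p = 0.171). Cdc23, on the other strand over Kif20a, was lower (-0.58, SE 0.14).

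**Figure D4:**
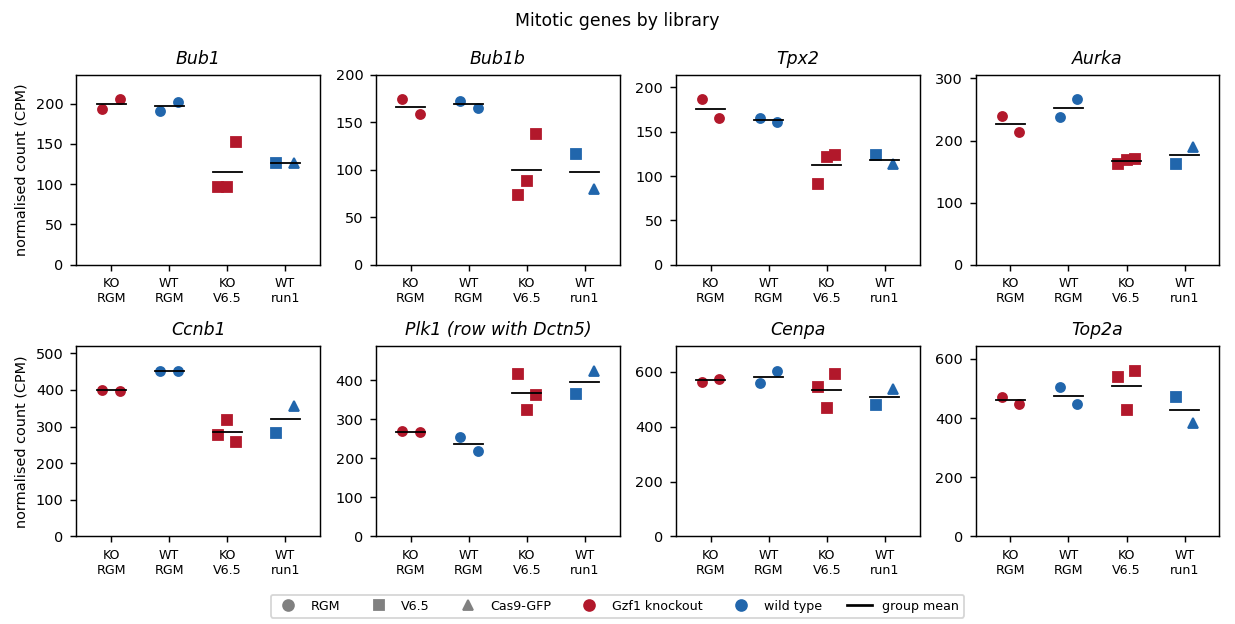
Normalised count (CPM) of 8 mitotic genes in each library, by genotype and line, with knockout (KO) left of wild type (WT), RGM left of run1, and bars for group means. Bub1, Bub1b, Tpx2, Aurka and Ccnb1 are higher in all 4 RGM libraries, the Plk1 row is lower, and Cenpa and Top2a overlap.

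The remaining 5 mitotic genes were Top2a, Mki67, Cenpa, Cenpe and Cenpf. None of them passed the threshold (edgeR adjusted p = 0.338 to 0.975), against 45.3% of all genes. At an unadjusted p under 0.05 there were 0 of the 5, against 52.9%. Other genes of the chromosome and kinetochore did differ, such as Bub1 and Bub1b above and Ncapd2 and Oip5 below. Top2a, topoisomerase II alpha, averaged 468 ± 26.9 CPM in RGM cells and 475 ± 74.4 CPM in run1 lines (SD, n = 4 and 5; log2 fold change -0.01, interval -0.28 to 0.27). Mki67, the proliferation marker Ki-67, averaged 52.6 ± 9.86 CPM in RGM cells and 54.2 ± 10.0 CPM in run1 lines (-0.03, interval -0.43 to 0.36). Cenpa, the centromeric histone, had 0.14 (interval -0.10 to 0.37). The kinetochore proteins Cenpe and Cenpf had -0.18 (interval -0.51 to 0.15) and -0.06 (interval -0.39 to 0.27).

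The line difference was then read in each genotype, in comparisons that share no library. In knockout cells, where it is RGM (n = 2) against V6.5 (n = 3), 12 of the 40 genes passed, 8 higher and 4 lower, against 25% of all genes (12.6% higher, 12.4% lower), and 20 had an unadjusted p under 0.05, against 37.9%. In wild-type cells, RGM (n = 2) against V6.5 and Cas9-GFP (1 library each), 12 passed, 6 higher and 6 lower, against 24.4% (12.1% higher, 12.3% lower), and 18 had an unadjusted p under 0.05, against 38.6%. The 6 genes that passed in both were Mcm5, Mcm7, Cdt1, Rfc4, Pola1 and Tyms, all of replication. They are 15% of the 40 genes, against 17.4% of all genes that passed in both. As a share of each list they are 50% of the 12 genes in knockout and 50% of the 12 in wild type, against 69.6% and 71.3% for all genes. Signs were the same for 34 of the 40 genes, against 83.6% of all genes, and the estimates correlated at r = 0.88 across the 40 genes (0.89 across all genes), a description over genes that share libraries and runs. Pola1 had -1.23 (SE 0.21) in knockout and -1.19 (SE 0.23) in wild-type cells, and Mcm5 -0.95 (SE 0.16) and -0.79 (SE 0.18). The counts fell when 1 library was left out of a group of 2, which leaves 1 library in that group. Counts from such fits are not given. In knockout cells limma voom called 19 of the 40 genes, with no share over all genes set beside it.

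**Figure D5:**
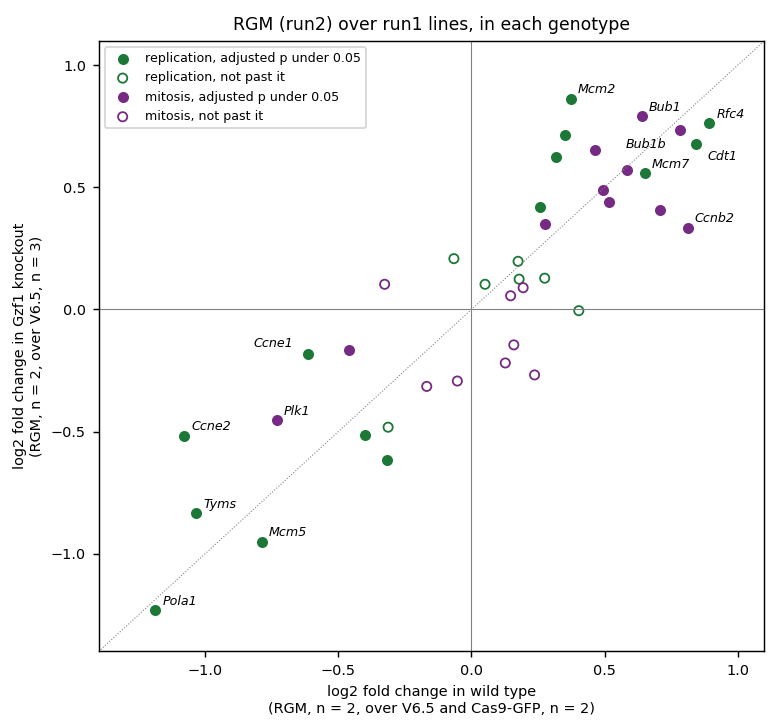
Log2 fold change of RGM over run1 lines in knockout (vertical) and in wild type (horizontal) for each of the 40 genes, filled where the fit of both genotypes passed an adjusted p of 0.05. Pola1 lies lowest on both axes, with Mcm5, Tyms and Ccne2 also below 0 on both, and the dotted line marks equal values.

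Wider lists were read in the same comparison. Of 53 further replication genes 5 were higher and 16 lower in RGM cells (median -0.12). Of 60 further mitotic genes 19 were higher and 10 lower (median 0.10). Both shares, 39.6% and 48.3%, stand beside the background of 45.3%. Orc2, a subunit of the origin recognition complex, was lower in RGM cells (log2 fold change -0.87, SE 0.12, edgeR adjusted p = 5.67e-05). Chaf1a, of the histone chaperone CAF-1, had -1.05 (SE 0.17), Pole, of the leading-strand polymerase, -0.71 (SE 0.15), and the merged row of Pold4 and Clcf1 1.00 (SE 0.20). Ncapd2, of condensin, averaged 415 ± 20.4 CPM in RGM cells and 129 ± 16.0 CPM in run1 lines, 3.23-fold higher (1.69, SE 0.12, adjusted p = 3.05e-07). Mad2l1, the checkpoint protein Mad2, had 1.38 (SE 0.13), Pttg1, securin, 1.35 (SE 0.15), and Oip5, of the Mis18 complex, 1.58 (SE 0.14). Among 33 G1 and E2F regulators 7 were higher and 6 lower (39.4%), with Cdk2 at 1.39 (SE 0.13), Mycn at 1.41 (SE 0.16), Cdk6 at 1.25 (SE 0.22) and Ccnd3, cyclin D3, at -1.46 (SE 0.15).

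Fibroblast markers moved with the line. Of 24 tested markers of feeder cells 18 were higher and 1 lower in RGM cells (median log2 difference 0.88), against 22.2% higher and 23.1% lower over all genes (median -0.02). The summed level of all 25 was 3026 to 4825 CPM in RGM cells and 1754 to 2672 CPM in run1 lines. Lox had 2.35 (SE 0.18), Col3a1 1.99 (SE 0.22), Col6a1 1.46 (SE 0.17) and Fn1 1.06 (SE 0.12), and 1 marker was at 0 in 1 library. Of the 15 stem cell markers 4 were higher and 2 lower in RGM cells, a share of 40% beside 45.3% of all genes, with Zfp42 at 3.30 (SE 0.13), Lin28a at 1.55 (SE 0.17), Klf4 at -1.23 (SE 0.15) and Tdgf1 at -1.44 (SE 0.16). The part of feeder RNA or of stem cell state in the differences above was not tested.

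The 2 wild-type lines of run1 gave 1 library each, so they are compared with no test. On the scale of CPM + 1, 2 of the 40 genes differed by over 1.5-fold, both lower in Cas9-GFP cells, against 18.8% of all genes. Rrm2 was at 293 CPM in Cas9-GFP cells (exact Poisson 95% interval 279 to 308) and 540 CPM in V6.5 cells (523 to 557). Mki67 was at 36.9 CPM in Cas9-GFP cells (31.9 to 42.5) and 60.2 CPM in V6.5 cells (54.7 to 66.1). The intervals cover counting error only. Cdc20 came next, 1.49-fold higher in Cas9-GFP cells, and Bub1b 1.46-fold lower.

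Spread between libraries was read in each genotype and run. The median SD of log2(CPM + 1) among the replication genes was 0.096 in knockout and 0.051 in wild-type RGM cells, and 0.179 in knockout and 0.152 in wild-type cells of run1. Among the mitotic genes it was 0.093, 0.109, 0.213 and 0.15 in the same order. Over all genes tested the values were 0.143, 0.129, 0.317 and 0.204, so the RGM medians were the smaller ones for each list. The wild-type libraries of run1 are of 2 lines. The summed level of the mitotic genes over that of the replication genes was 0.801 to 0.943 in RGM cells and 0.802 to 0.898 in run1 lines, so the ranges overlapped.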

How the data were processed

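Poly(A)+ RNA of 9 libraries was prepared with MARS-seq2.0, per the labels' protocols. The authors deposited 1 table of raw counts per gene symbol. Per the submitters' processing notes, STAR, DESeq2 and mm10 were used. The sources used here name no counter, strand setting or use of molecular identifiers. Of 30324 rows, 92 spike-in rows were left out. filterByExpr (minimum count 10) kept 12645 of 30232 gene rows. Counts were scaled with TMM and tested in edgeR 4.0.16 (R 4.3.3) by the robust quasi-likelihood F test, with Benjamini-Hochberg adjustment over all genes tested and a threshold of 0.05. Joint fits had run and genotype as terms, and other contrasts came from a fit with 4 groups (genotype by run). Each SE was obtained from the fold change and its F statistic. DESeq2 1.42.0, limma 3.58.1 voom, other scaling, no filter and leaving out each library were the alternatives. The scripts were tested on simulated data. No libraries of one genotype and run agreed within sampling noise (chi-square per degree of freedom 2.63 to 26.0). The 40 genes and all lists were chosen with earlier results of these data known. Values by library were given for the genes with the smallest p in each group. Positions are from GENCODE M21 and promoters from RefSeq GRCm38.p6.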

Additional observations from a re-analysis of the deposited data

Results flagged for a closer look

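One library lay far from the others of its genotype for 1 gene among the 80 combinations of gene and genotype that were examined. Chance flags about 1 in 20 where all libraries of a genotype are alike. Each genotype here pools RGM and run1 libraries, so that rate need not hold. Prim1, the primase subunit, was at 125 CPM in wild-type replicate 1, while the other 3 wild-type libraries were all at 117 CPM, so the gap is large only beside their close values.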

How the results depend on the processing

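The count of the 40 genes changed by the knockout was 0 in each alternative for all libraries, for RGM cells, for run1 and for the difference between runs. Over all genes the knockout count of 4 was 7 with DESeq2, 7 with limma voom, 35 with no low-count filter and 2 to 4 with 1 library left out. In RGM cells the count of 0 was 2, 4 and 7 and in run1 the count of 2 was 4, 3 and 46 in the same alternatives. The replicate block over replicates 1 to 4 gave 0 of the 40 genes (6 of all genes, against 4), and in the RGM libraries alone the replicate block gave 0 (5 of all genes, against 9 without the block). Whether replicate numbers pair the libraries could not be settled. Deviations of same-numbered libraries correlated at -0.08 in RGM cells and at 0.30 and 0.35 in run1. Other-numbered libraries of run1 correlated at -0.35 to 0.11. In each run the 2 wild-type libraries have deviations that mirror each other, so these values cannot decide it. The line count of 25 ranged from 18 to 26 with 1 library left out and was 25 with DESeq2, limma voom and RLE scaling and 23 with no low-count filter. Of the 25 genes 17 passed with the same sign in all 13 alternatives, and 0 changed sign. In knockout cells the line count of 12 was 19 with limma voom. These line counts have no share over all genes beside them, so they describe the stability of the calls only. In both genotypes the line count fell where 1 library of a group of 2 was left out, and those counts are not given. Where only 1 library of a group of 2 is left, it is assumed to vary like the other groups. The 95% intervals of the knockout effect reach 0.62 on the log2 scale in size. Within a run their outer bounds over the 40 genes were -0.84 to 0.73 in RGM cells and -0.95 to 0.77 in run1. Those bounds also hold the spread of the estimates. The median SE was 0.207 for replication and 0.201 for mitotic genes in RGM cells. In run1, which was sequenced more deeply, it was 0.184 and 0.18, and the part of depth in this was not tested.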
